A study of Homo sapiens with 12 samples.

Results

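The mitochondrial chromosome of human cells carries 37 genes, and all 37 were measured in control and aggregation cells of the glioblastoma lines U87 and U118. They were chosen by position, as the genes of GENCODE release 29 on chrM of GRCh38 whose symbols begin with MT-, and they are 37 of the 58174 genes in each of the deposited tables. They comprise 13 messenger RNA (mRNA) genes, 2 ribosomal RNA (rRNA) genes and 22 transfer RNA (tRNA) genes. U87 (U-87 MG) and U118 (U-118 MG) are established human glioblastoma cell lines. According to the study's methods, the cells were sorted several times for absence of CD133 and CD15 and kept in serum with BMP2, which holds them in a differentiated state. The aggregation cells came from cells exposed for weeks to temozolomide (TMZ), an alkylating drug. The paper's results describe growth arrest during treatment and for weeks after it, before a subset formed aggregations. A figure legend there places this after weeks of treatment. TMZ was at 50 μM. In the labels, control cells are named sensitive and aggregation cells resistant; they give no time or passage, and do not say whether the 3 libraries of each of the 4 groups came from separate cultures, so that p-values measure the spread between these 12 libraries, which may be technical.

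Mitochondrial DNA is transcribed from both strands into long precursor RNAs, in which tRNAs lie between most of the other genes. Enzymes cut the precursors at the tRNAs, and most mRNAs and the rRNAs receive short adenine tails inside the organelle. Translation of the mRNAs is by a mitochondrial ribosome that is built on MT-RNR1 and MT-RNR2. The mRNAs encode core subunits of respiratory complexes I, III and IV and of the ATP synthase, while every other subunit, and the polymerase and processing enzymes, come from nuclear genes. In glioma cells the organelle supplies ATP and nucleotide precursors and takes part in programmed cell death.

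Values were TPM, a length-scaled measure of transcript abundance that sums to the same amount in each library. TPM keeps no read counts, so depth was unknown, errors are the spread between libraries only, and a higher share of one gene class lowers the values of all other genes. The libraries were made with an mRNA kit, and whether counting used strand was not given in the sources used here; RNA of the opposite strand could then not be told apart from the gene's own. Cells with more mitochondrial genomes and cells with more RNA per genome cannot be told apart in bulk samples. Control and aggregation libraries were compared within each line by limma on the log2(TPM + 1) scale, for 13845 genes in U87 and 15527 in U118 that reached 1 TPM in 3 or more of 6 libraries. Genes were called where the Benjamini-Hochberg adjusted p was under 0.05. All 37 genes passed this filter in both lines. All log2 fold changes are aggregation against control on this scale, which understates changes of low genes.

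Before the results, the libraries were compared with their labels. Across genes, Spearman's rho of the libraries labelled U118 aggregation was 0.829 to 0.850 with U118 control libraries and 0.862 to 0.874 with U87 libraries. Of 174 genes at 10 TPM or more in every U118 control library and under 1 TPM in every U87 control library, 113 to 128 were under 1 TPM in the libraries labelled U118 aggregation. Of 116 genes with the opposite pattern, 59 to 70 were at 10 TPM or more there. The libraries labelled U118 aggregation thus went against their line label in part, and each direction in U118 below rests on that label; the cause was not tested. U118 control replicate 3 and U118 aggregation replicate 1 also stood apart within their groups in the mitochondrial share of TPM. That share was 19.7% in the former, against 7.42% and 8.55% in the other controls. In the latter it was 13.2%, against 29.9% and 26.1%. Across genes, rho was 0.909 to 0.914 among U118 control and 0.890 to 0.904 among U118 aggregation libraries. Counts are given with and without both. Leaving them out draws the groups apart by the members' own values, so counts without them are no separate support. VIM, an intermediate filament gene of mesenchymal glioma lines, was at 4425 to 7149 TPM over all libraries, while GFAP, the astrocyte filament gene, was at most 0.693 TPM, PROM1, which encodes CD133, at most 0.0797 TPM, and PTPRC, EPCAM and PECAM1, markers of blood, epithelium and endothelium, each below 1 TPM; FUT4, which makes the CD15 epitope, was at most 2.19 TPM.

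Sequences of 8 tRNA genes are shown here because the tRNA results turn on them, each with its anticodon in capitals, written as DNA of the strand that encodes it (GENCODE release 29 transcripts, GRCh38). The first set of 4 lies side by side on the minus strand between MT-ND2 and MT-CO1; it held most of the tRNA TPM in every library and was not called in U87.
MT-TA (tRNA Ala, chrM:5587-5655, minus strand): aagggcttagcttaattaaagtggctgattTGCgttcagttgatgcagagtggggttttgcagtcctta
MT-TN (tRNA Asn, chrM:5657-5729, minus strand): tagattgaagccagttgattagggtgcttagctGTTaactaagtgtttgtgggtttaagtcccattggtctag
MT-TC (tRNA Cys, chrM:5761-5826, minus strand): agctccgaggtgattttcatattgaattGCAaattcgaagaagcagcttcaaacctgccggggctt
MT-TY (tRNA Tyr, chrM:5826-5891, minus strand): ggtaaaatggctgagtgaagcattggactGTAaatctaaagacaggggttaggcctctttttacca

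The second set of 4 rose by a log2 fold change of over 1 in both lines, as did the tRNA genes MT-TE and MT-TK and the rRNA gene MT-RNR2, which are not printed. MT-TV lies between the rRNA genes, and MT-TI, MT-TQ and MT-TM lie next to each other between MT-ND1 and MT-ND2.
MT-TV (tRNA Val, chrM:1602-1670, plus strand): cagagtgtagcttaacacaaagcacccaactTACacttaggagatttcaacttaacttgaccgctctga
MT-TI (tRNA Ile, chrM:4263-4331, plus strand): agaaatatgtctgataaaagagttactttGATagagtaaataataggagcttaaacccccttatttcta
MT-TQ (tRNA Gln, chrM:4329-4400, minus strand): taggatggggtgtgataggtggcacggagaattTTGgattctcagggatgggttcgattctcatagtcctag
MT-TM (tRNA Met, chrM:4402-4469, plus strand): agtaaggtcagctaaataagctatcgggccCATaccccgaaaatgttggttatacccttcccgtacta

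MT-ATP8 and MT-ATP6, which encode membrane subunits of the ATP synthase, share 46 bases, in which the start codon of MT-ATP6 and the stop codon of MT-ATP8 are in capitals. Reads in this stretch belong to both genes, and MT-ATP8, with 207 bases, is the shortest of the mRNAs.
MT-ATP8/MT-ATP6 overlap (chrM:8527-8572, plus strand): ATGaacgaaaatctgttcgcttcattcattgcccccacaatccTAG

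The tRNA features were 59 to 75 bases long, shorter than a usual sequencing fragment, and abut their neighbours, so a TPM at a tRNA gene could hold reads of uncut precursor as well as of the mature tRNA. TPM of such short features depends on how the tool treats their length, which the sources used here do not give; levels are therefore compared between libraries for 1 tRNA gene, and between tRNA genes only as listed values. MT-ND4L and MT-ND4 share 7 bases in the same way.

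Mitochondrially encoded genes held a larger part of the transcriptome in aggregation cells of U87. They took 16.9, 12.9 and 16.5% of all TPM in U87 control libraries and 22.2, 23.6 and 23.7% in U87 aggregation libraries (means 15.4 ± 2.22% and 23.2 ± 0.845%, SD, n = 3 each). The 3 aggregation libraries of U87 lay close together and all above the controls. In U118 the share was 7.42, 8.55 and 19.7% in control and 13.2, 29.9 and 26.1% in aggregation libraries (means 11.9 ± 6.81% and 23.1 ± 8.73%). The groups of U118 overlapped, since control replicate 3 lay above aggregation replicate 1. The exact permutation test of 3 libraries against 3 gave a two-sided p of 0.1 in U87, the smallest it can give, and 0.2 in U118 (Benjamini-Hochberg adjusted p = 0.164 and 0.225 over 18 such tests of shares and ratios, of which none could pass 0.05). Over both lines, with labels permuted within each line (400 arrangements, smallest possible p 0.005), the exact two-sided p was 0.04; it was 0.045 for the mRNAs alone and 0.005 for the rRNAs and for the tRNAs, with Benjamini-Hochberg adjusted values of 0.045, 0.045 and 0.0125 in a family of 5 such tests. Leaving out 1 of U118 control replicates 1 and 2 or aggregation replicates 2 and 3 took the p for the whole share above 0.05, to between 0.06 and 0.08.

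**Figure D1:**
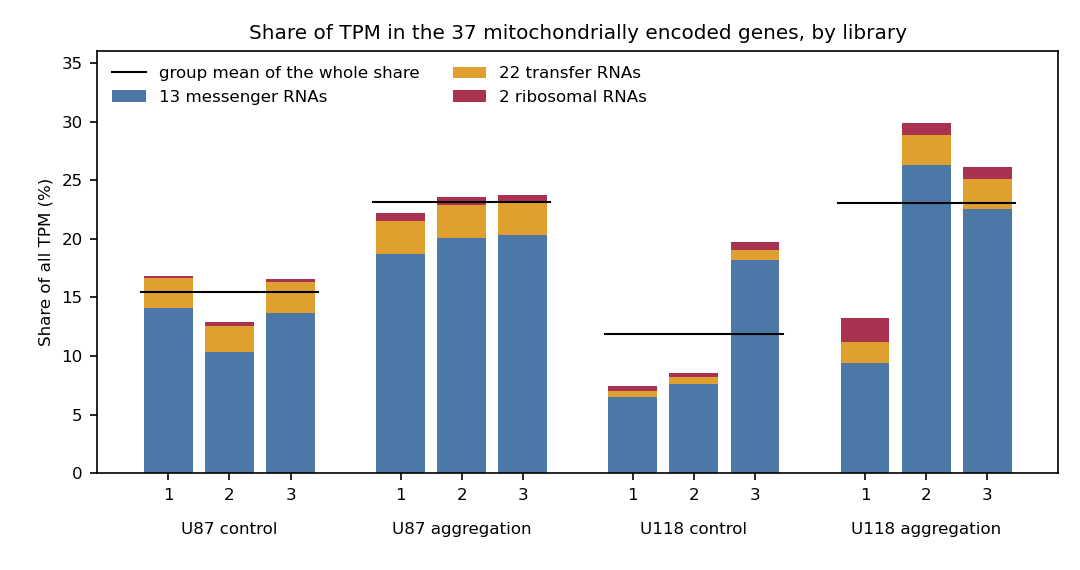
Share of TPM (%, y axis) in the 37 mitochondrially encoded genes for each of the 12 libraries (x axis, replicate number within group), stacked by RNA class, with black lines at the group means. U87 aggregation bars reach 22.2% to 23.7% against 12.9% to 16.9% in U87 control, and the 2 U118 groups overlap.

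The 3 RNA classes did not take equal parts in this. The mRNAs held 12.7 ± 2.07% of TPM in U87 control and 19.7 ± 0.871% in aggregation libraries, and 10.8 ± 6.42% and 19.4 ± 8.86% in U118 (SD, n = 3). The rRNA share was 0.199, 0.291 and 0.213% in U87 control and 0.655, 0.698 and 0.694% in U87 aggregation libraries. In U118 it was 0.374, 0.322 and 0.667% in control and 2.01, 1.00 and 1.02% in aggregation libraries, so the groups did not overlap in either line. The tRNA share moved little in U87, from 2.55, 2.24 and 2.62% to 2.83, 2.80 and 2.71%, though its groups lay apart. In U118 it was 0.519, 0.603 and 0.931% in control and 1.81, 2.62 and 2.55% in aggregation libraries, again apart. An mRNA kit selects tailed RNA, and how much rRNA and tRNA passes it can differ between libraries. A list of 14 nuclear RNAs without a long adenine tail summed to 139 to 179 TPM in U87 control and 134 to 271 in U87 aggregation libraries, and to 92.7 to 254 and 76.8 to 111 in U118; their groups overlapped in both lines. The 90 replication-dependent histone genes, whose mRNAs lack the tail, summed to 196 to 207 TPM in U87 control and 498 to 547 in U87 aggregation libraries, and to 611 to 915 and 436 to 532 in U118. The part of either in the results was not tested.

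All 13 mitochondrial mRNAs were higher in U87 aggregation than in U87 control cells. Each was called, none fell, and in each all aggregation libraries lay above all control libraries. Among all genes tested in U87, 9.43% were called higher and 29.7% lower, and 13.6% had all aggregation above all control libraries. The log2 fold changes of the 13 ran from 0.40 to 0.94 with a median of 0.61, beside a median of -0.24 over all genes tested. None reached a log2 fold change of 1, a size that 3.03% of genes passed as called and higher.

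Complex I, the NADH dehydrogenase at the entry of the chain, has 7 of the 13 mRNAs. MT-ND1, its membrane subunit nearest to the quinone site, was at 7024, 4851 and 6375 TPM in U87 control and 10525, 11606 and 12269.8 TPM in U87 aggregation libraries (log2 fold change 0.93 ± 0.14 SE, adjusted p = 0.00253). MT-ND4, one of its proton-pumping subunits, was at 14466, 9820.3 and 14329 TPM in control and 18957, 20934 and 21516 TPM in aggregation libraries (log2 fold change 0.69 ± 0.15 SE, adjusted p = 0.0123). The other pumping subunits rose less, MT-ND2 by 0.58 and MT-ND5 by 0.44 on the log2 scale, the latter with an adjusted p of 0.0447. The small membrane subunits MT-ND3 and MT-ND4L rose by 0.47 and 0.60. MT-ND6, the only mRNA on the other strand (minus, chrM:14149-14673), was at 2249, 1486 and 2068 TPM in control and 2872, 2933 and 3376 TPM in aggregation libraries (log2 fold change 0.68 ± 0.16 SE, adjusted p = 0.0139). Its change lay within the range of the 12 plus-strand mRNAs.

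MT-CYB, the cytochrome b of complex III, was at 7539, 5859 and 7442 TPM in U87 control and 9908, 10802 and 10971 TPM in U87 aggregation libraries (log2 fold change 0.61 ± 0.11 SE, adjusted p = 0.00474). The subunits of complex IV, cytochrome c oxidase, were the most abundant mRNAs. MT-CO3 was at 23486, 18779 and 23631 TPM in control and 36022, 42205 and 37864 TPM in aggregation libraries (log2 fold change 0.82 ± 0.11 SE, adjusted p = 0.00155). MT-CO1, the catalytic subunit with the haem and copper centre, was at 21784, 17335 and 22402 TPM in control and 26295, 27445 and 26963 TPM in aggregation libraries and had the smallest rise of the 13 (log2 fold change 0.40 ± 0.10 SE, adjusted p = 0.0211). MT-CO2, which takes electrons from cytochrome c, rose by 0.49 (adjusted p = 0.0256). Of the ATP synthase subunits, MT-ATP6, the proton channel, was at 4531, 3349 and 4551 TPM in control and 6759, 7927 and 7330.4 TPM in aggregation libraries (log2 fold change 0.84 ± 0.13 SE, adjusted p = 0.00304). MT-ATP8 was at 8724, 5163 and 6399 TPM in control and 12393, 9689.9 and 16815 TPM in aggregation libraries (log2 fold change 0.94 ± 0.25 SE, adjusted p = 0.0229), with the widest spread of the U87 mRNAs. Without aggregation replicate 1 or 3 of U87, 8 and 7 of the 13 stayed past the threshold, and with no filter on low values 8 did.

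**Figure D2:**
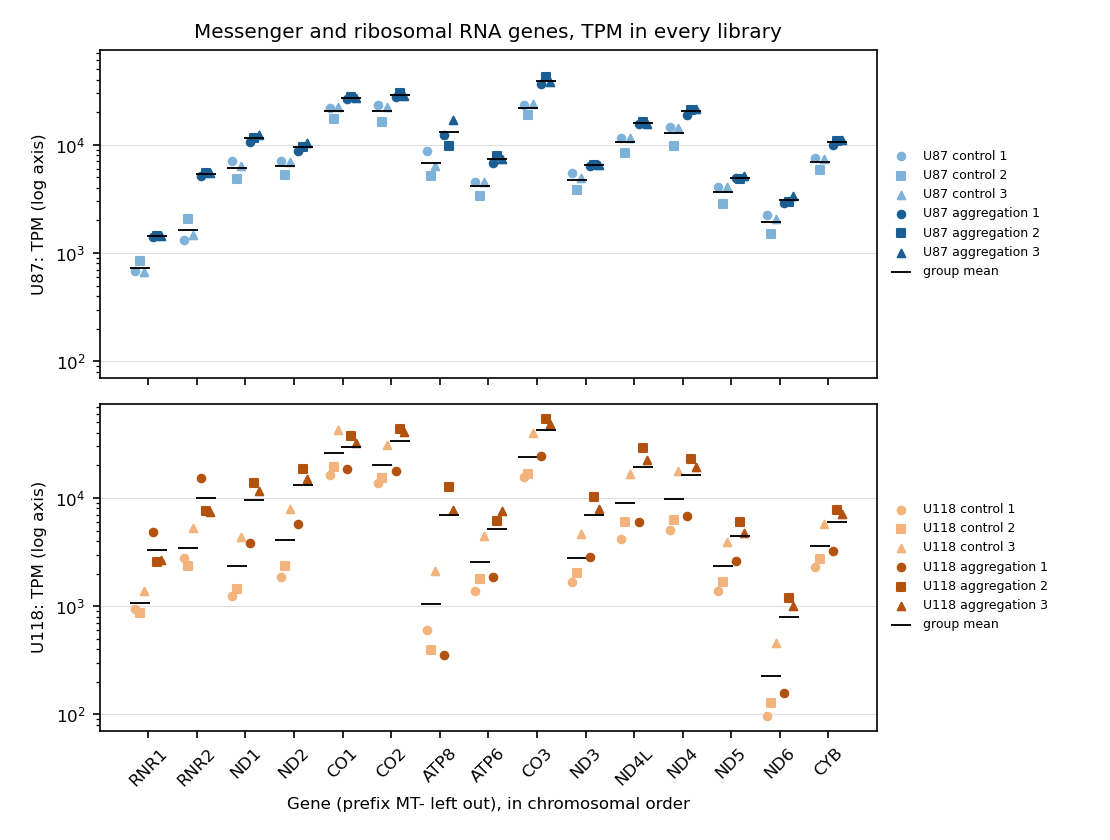
TPM (log axis) of the 2 rRNA and 13 mRNA genes in chromosomal order (x axis), with 1 point per library, shapes for replicate numbers and black bars for group means; U87 is above and U118 below. The dark U87 aggregation points lie above the light control points for every gene, while in U118 control replicate 3 (light triangles) and aggregation replicate 1 (dark circles) fall between or across the groups for the mRNAs.

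Relative to each other, no mRNA was called in U87, though the shares of the mRNA total lay apart for several of them. Relative to the mean log2(TPM + 1) of the 13 mRNAs in each library, limma called 0 of the 13 in U87, with 0 at an unadjusted p under 0.05, and the relative changes ran from -0.25 for MT-CO1 to 0.28 for MT-ATP8. This centring makes the changes of the 13 sum to 0. Their standard errors ran from 0.14 for MT-ND1 to 0.19 for MT-ATP8, so this fit could not show that proportions stayed equal. Under it 1.83% of all genes tested were called higher and 66.5% lower. Without U87 control replicate 2, 5 of the 13 were called. As a percentage of the summed mRNA TPM, MT-CO1 was 16.2 ± 0.685% in U87 control and 13.7 ± 0.397% in aggregation libraries, and MT-ND1 was 4.78 ± 0.177% and 5.82 ± 0.206% (SD, n = 3). By mean level the order in U87 control was MT-CO3, MT-CO2, MT-CO1, MT-ND4, MT-ND4L, MT-CYB, MT-ATP8, MT-ND2, MT-ND1, MT-ND3, MT-ATP6, MT-ND5 and MT-ND6. The 3 oxidase mRNAs had means of 21965, 20573 and 20507 TPM, with ranges that overlapped between libraries, although MT-CO3 was above both others within each U87 control library, as it was in each U87 aggregation library (36022 to 42205 TPM). By mean level MT-ATP8 was in the sixth place and MT-ND1 in the seventh in U87 aggregation libraries, but MT-ATP8 ran from 9689.9 to 16815 TPM and lay below MT-ND1 and MT-CYB in replicate 2. These orders are of listed values only, although TPM is scaled for length. How the tool treats short genes such as MT-ATP8 was not given, and MT-ATP8 shares bases with MT-ATP6. A nuclear copy of MT-ATP6, MTATP6P1, was also listed at 62.9% to 72.7% of its level in U87 libraries.

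In U118 the mRNAs were higher on average in the libraries labelled aggregation, but most did not pass the test. Only MT-ND1 and MT-ND2 were called, 2 of 13, beside 12.2% of all genes called higher and 39.1% lower in this line. All 13 log2 fold changes were above 0, from 0.25 to 2.10, with a median of 1.01 beside -0.52 over all genes. In none of the 13 did the groups lie apart, whereas 15.7% of all genes tested had all aggregation above all control libraries.

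MT-ND1 was at 1241, 1433 and 4337 TPM in U118 control and 3839, 13658 and 11524 TPM in the libraries labelled U118 aggregation (log2 fold change 2.10 ± 0.59 SE, adjusted p = 0.016). MT-ND2 was at 1852, 2374 and 7938 TPM in control and 5722, 18577 and 15089 TPM in aggregation libraries (log2 fold change 1.84 ± 0.61 SE, adjusted p = 0.0312). For both, control replicate 3 lay above aggregation replicate 1. MT-ND6 was at 96.9, 127 and 460.1 TPM in control and 158, 1191 and 1013 TPM in aggregation libraries (log2 fold change 1.69 ± 0.79 SE, adjusted p = 0.103). MT-ATP8 had the widest range, 607, 392 and 2118 TPM in control and 353, 12767 and 7774 TPM in aggregation libraries, with an interval of -0.67 to 4.75 around its log2 fold change of 2.04. Aggregation replicate 1 was the lowest of the 6 libraries for MT-ATP8, and replicates 2 and 3 were the highest.

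MT-CO1 had the smallest difference of the 13 in U118. It was at 16179, 19265 and 42476 TPM in control and 18678, 37102 and 32278 TPM in aggregation libraries (log2 fold change 0.25 ± 0.47 SE, adjusted p = 0.668). Without U118 control replicate 1 its difference was -0.022. MT-CO2 differed by 0.75 and MT-CO3 by 0.86 on the log2 scale (adjusted p = 0.215 and 0.167). MT-CYB differed by 0.77, MT-ATP6 by 0.99, MT-ND3 by 1.29, MT-ND4L by 1.08, MT-ND4 by 0.81 and MT-ND5 by 1.01, with adjusted p-values from 0.0683 for MT-ND3 to 0.27 for MT-ND4.

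The U118 count depended on single libraries. It was 9 of 13 without aggregation replicate 1, 5 without control replicate 3, and 0 or 1 without each of the other 4 libraries. Without both of the libraries that stood apart it was 13 of 13, but these were set apart by the members' own share. In that fit 1611 of all 12764 genes tested were called higher and 7521 lower. Aggregation replicate 1 also differed from replicates 2 and 3 in the proportions of the mRNAs. After centring on the mRNA mean, its mean absolute log2 difference over the 13 mRNAs was 0.39 from the U118 control mean and 0.89 from the U87 control mean. For replicates 2 and 3 the order was turned, with 0.70 and 0.60 from U118 control and 0.41 and 0.42 from U87 control. MT-ND6 took 1.51 ± 0.0781% of the mRNA TPM in U87 control but 0.189 ± 0.0563% in U118 control, and 0.168% to 0.454% in the libraries labelled U118 aggregation. The tables of the lines were made separately, so levels set across lines are listed values without a test. Relative to the mRNA mean, limma called 0 of the 13 mRNAs in U118 and 0 at an unadjusted p under 0.05. Under this centring 0.419% of all genes were called higher and 5.48% lower. The standard errors of the 13 ran from 0.71 to 1.02, so this fit could not show that proportions stayed equal. Shares of the mRNA total lay apart in U118 for MT-ND1 (1.88% to 2.39% in control, 4.08% to 5.20% in aggregation libraries) and MT-ND2 (2.84% to 4.37%, 6.08% to 7.07%). They also lay apart for MT-ND3 (2.54% to 2.66%, 3.04% to 3.89%) and MT-CO1 (23.4% to 25.3%, 14.1% to 19.9%), and overlapped for the other mRNAs. In the test of the difference between the lines over all 12 libraries, limma called 0 of the 13 mRNAs and 0 at an unadjusted p under 0.05, beside 15.5% of all genes with a larger and 22.6% with a smaller change in U118.

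Both mitochondrial rRNAs were called higher in both lines, with groups that lay apart. MT-RNR1, the RNA of the small ribosomal subunit (chrM:648-1601, plus strand), was at 681, 844 and 667 TPM in U87 control and 1409, 1444 and 1433 TPM in U87 aggregation libraries (log2 fold change 0.98 ± 0.10 SE, adjusted p = 0.000465). MT-RNR2, the RNA of the large subunit (chrM:1671-3229, plus strand), was at 1305, 2070.0 and 1465 TPM in control and 5136, 5534 and 5507 TPM in aggregation libraries (log2 fold change 1.77 ± 0.16 SE, adjusted p = 0.000338). The ratio of MT-RNR2 to MT-RNR1 went from 1.92, 2.45 and 2.20 in U87 control to 3.64, 3.83 and 3.84 in U87 aggregation libraries, so the U87 groups lay apart (exact permutation p = 0.1, the smallest possible). Relative to the mRNA mean, MT-RNR2 was still called higher in U87 (1.11 ± 0.24, adjusted p = 0.00168), while MT-RNR1 was not (0.32 ± 0.20, adjusted p = 0.163).

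In U118, MT-RNR1 was at 939.7, 872 and 1386 TPM in control and 4812, 2542 and 2663 TPM in the libraries labelled aggregation (log2 fold change 1.61 ± 0.32 SE, adjusted p = 0.00318). MT-RNR2 was at 2803, 2344 and 5280.1 TPM in control and 15307, 7506 and 7490.3 TPM in aggregation libraries (log2 fold change 1.54 ± 0.41 SE, adjusted p = 0.0128). Aggregation replicate 1, low in mRNA, was the highest library for both rRNAs. Without U118 control replicate 2, MT-RNR2 had an adjusted p of 0.0605. The ratio of the rRNAs was 2.98, 2.69 and 3.81 in U118 control and 3.18, 2.95 and 2.81 in aggregation libraries, with overlapping groups (exact permutation p = 0.8). Per 100 TPM of mRNA there were 1.41, 2.82 and 1.56 TPM of rRNA in U87 control and 3.50, 3.48 and 3.41 in U87 aggregation libraries. In U118 these figures were 5.73, 4.22 and 3.67 in control and 21.4, 3.83 and 4.51 in aggregation libraries. The differences between the lines in the changes of MT-RNR1 (0.64 ± 0.35, adjusted p = 0.17) and MT-RNR2 (-0.22 ± 0.47, adjusted p = 0.739) did not pass the limma test.

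Most tRNA genes rose in U87, while a cluster of 4 was not called there and rose in U118. In U87, 17 of the 22 were called higher and none lower, beside 9.43% and 29.7% of all genes tested. In U118, 13 of 22 were called higher and none lower, beside 12.2% and 39.1%. Without the 2 libraries that stood apart, 16 were called higher and 1, MT-TL2, lower (-0.46), beside 1611 and 7521 of all 12764 genes tested. The median log2 fold change of the 22 was 0.89 in U87 and 1.10 in U118. In U87, 10 of the 22 were both called and at a log2 fold change of at least 1, beside 3.03% of all genes tested, and in U118 11, beside 8.64%. All aggregation libraries lay above all control libraries for 18 of the 22 in U87, beside 13.6% of all genes, and for 14 in U118, beside 15.7%. Relative to the mRNA mean, 8 of the 22 were called higher in U87 (MT-TV, MT-TW, MT-TM, MT-TS1, MT-TQ, MT-TD, MT-TE and MT-TI, by 0.68 to 2.34) and 4 lower, beside 1.83% and 66.5% of all genes, while in U118 limma called 0 of the 22 and 0 of the 2 rRNAs, with 0 at an unadjusted p under 0.05. The standard errors of these U118 changes were wide, from 0.83 for MT-RNR2 to 1.11 for MT-TQ.

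MT-TA, MT-TN, MT-TC and MT-TY, for alanine, asparagine, cysteine and tyrosine, lie on the minus strand from position 5587 to 5891. MT-TC, the highest, was at 8339, 7657 and 8760.5 TPM in U87 control and 8793, 8693 and 7978 TPM in U87 aggregation libraries (log2 fold change 0.042 ± 0.073 SE, adjusted p = 0.686). MT-TA, the lowest of the 4, was at 2266, 2092 and 2384 TPM in control and 2294, 2305 and 2237 TPM in aggregation libraries (log2 fold change 0.022 ± 0.064 SE, adjusted p = 0.815). The U87 groups overlapped for all 4, and the 95% intervals of their log2 fold changes lay between -0.15 and 0.24. With median-ratio scaling of the libraries, which moved the all-gene median to -0.016, they were at 0.27 to 0.31 and not called (adjusted p = 0.13 to 0.151). Relative to the mRNA mean the 4 were called lower in U87, by log2 fold changes of -0.61 to -0.64.

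In U118 the same 4 genes were called higher. MT-TC was at 1084, 1319 and 2268 TPM in U118 control and 4428, 7613 and 7529.7 TPM in the libraries labelled U118 aggregation (log2 fold change 2.10 ± 0.36 SE, adjusted p = 0.00133). MT-TA was at 382, 473 and 759.8 TPM in control and 1309.9, 2601 and 2476 TPM in aggregation libraries (log2 fold change 1.98 ± 0.35 SE, adjusted p = 0.00172). MT-TN was at 921, 1119.9 and 1533 TPM in control and 3169, 5294 and 5138 TPM in aggregation libraries, and MT-TY was at 729, 938 and 1902 TPM in control and 3289.6, 6319 and 6244 TPM in aggregation libraries. For all 4 the U118 groups lay apart, and aggregation replicate 1 was the lowest of the 3 aggregation libraries. The U118 change exceeded the U87 change for each of the 4 by 1.91 to 2.17 on the log2 scale, and each difference was called. Together the 4 held 87.7, 90.3 and 89.1% of the tRNA TPM in U87 control and 81.2, 82.0 and 79.4% in U87 aggregation libraries. In U118 they held 60.0, 63.8 and 69.4% in control and 67.4, 83.3 and 83.7% in aggregation libraries.

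**Figure D3:**
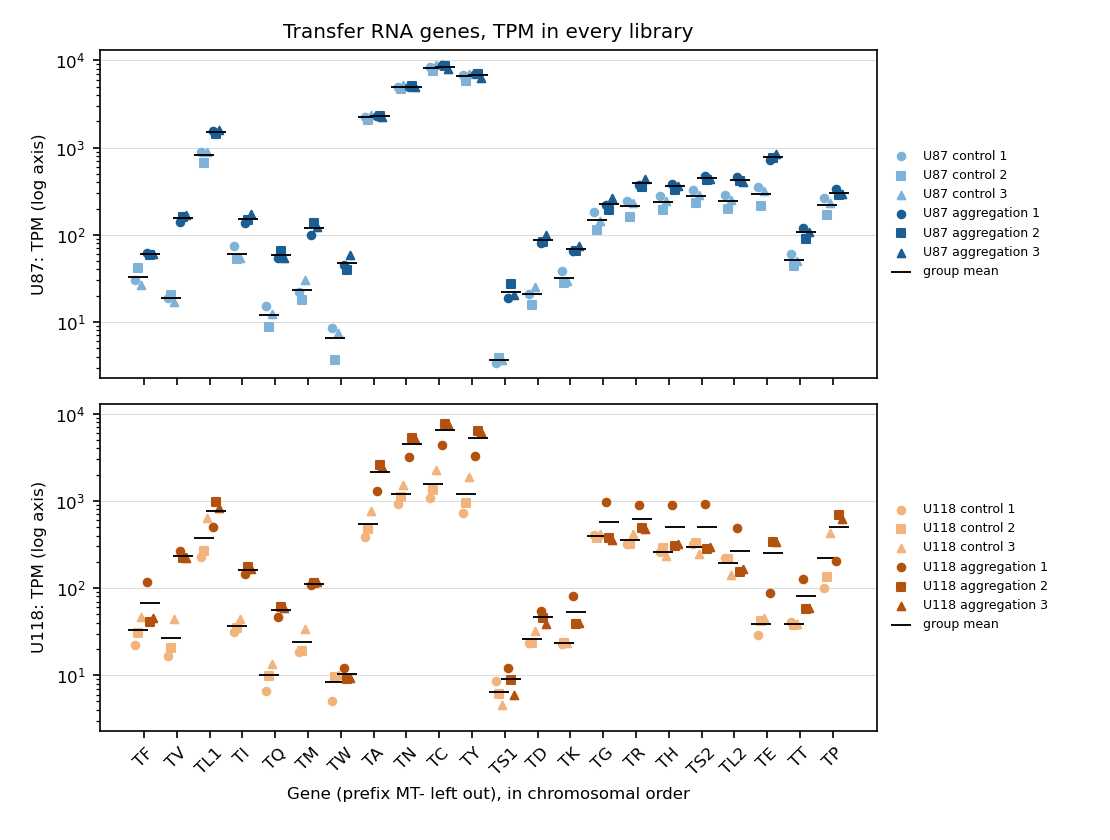
TPM (log axis) of the 22 tRNA genes in chromosomal order (x axis), with 1 point per library, shapes for replicate numbers and black bars for group means; U87 is above and U118 below. TA, TN, TC and TY form the high plateau, with overlapping U87 groups and raised in the libraries labelled U118 aggregation.

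MT-TV, the valine tRNA between the rRNA genes, had the largest rise in both lines. It was at 19.0, 20.4 and 16.8 TPM in U87 control and 139, 162 and 168 TPM in U87 aggregation libraries (log2 fold change 2.99 ± 0.11 SE, adjusted p = 2.58e-05). In U118 it was at 16.5, 20.8 and 43.8 TPM in control and 262, 224 and 221 TPM in aggregation libraries (log2 fold change 3.20 ± 0.33 SE, adjusted p = 7.53e-05). Its groups lay far apart in both lines, and it was called higher relative to the mRNA mean in U87 (2.34 ± 0.23, adjusted p = 1.57e-05).

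The isoleucine, glutamine and methionine tRNAs between MT-ND1 and MT-ND2 rose with it. MT-TI was at 73.9, 52.1 and 54.6 TPM in U87 control and 136, 149 and 173 TPM in U87 aggregation libraries, and in U118 at 31.2, 35.1 and 43.7 TPM in control and 144, 175 and 164 TPM in aggregation libraries. MT-TQ, on the minus strand, was at 15.2, 8.84 and 12.3 TPM in U87 control and 54.6, 64.4 and 54.5 TPM in aggregation libraries, and in U118 at 6.56, 9.80 and 13.5 TPM in control and 46.4, 60.5 and 59.0 TPM in aggregation libraries. MT-TM, the tRNA that also starts translation, was at 21.9, 17.7 and 30.1 TPM in U87 control and 99.3, 135 and 123 TPM in aggregation libraries, and in U118 at 18.6, 19.1 and 33.8 TPM in control and 107, 113 and 117 TPM in aggregation libraries. In all 3 the groups of both lines lay apart. Their log2 fold changes were 1.34, 2.19 and 2.33 in U87 and 2.11, 2.40 and 2.25 in U118, each called. MT-TI changed more in U118 than in U87 (log2 difference 0.78 ± 0.25 SE, adjusted p = 0.0279), a difference that was lost when any of 7 of the 12 libraries was left out.

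A further 3 tRNAs rose in U87 and differed between the lines in the other direction. MT-TW, for tryptophan, was at 8.45, 3.67 and 7.43 TPM in U87 control and 45.4, 39.5 and 58.0 TPM in U87 aggregation libraries (log2 fold change 2.74 ± 0.29 SE, adjusted p = 0.000578). In U118 it was at 5.12, 9.58 and 10.1 TPM in control and 12.2, 9.07 and 9.39 TPM in aggregation libraries (log2 fold change 0.32 ± 0.29 SE, adjusted p = 0.385), with overlapping groups. MT-TS1, a serine tRNA on the minus strand, had a log2 fold change of 2.29 in U87 and 0.41 in U118, and its level was at most 27.0 TPM in any library. MT-TD, for aspartate, rose in both lines, by 2.06 in U87 and 0.79 in U118. The U118 change was smaller than the U87 change for MT-TW (-2.42 ± 0.42), MT-TS1 (-1.88 ± 0.38) and MT-TD (-1.27 ± 0.29), and each difference was called.

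The glutamate tRNA MT-TE, on the minus strand beside MT-ND6, was at 351, 214 and 314 TPM in U87 control and 717, 761 and 834 TPM in U87 aggregation libraries (log2 fold change 1.42 ± 0.18 SE, adjusted p = 0.00121). In U118 it was at 28.7, 41.4 and 45.6 TPM in control and 87.2, 341 and 337 TPM in aggregation libraries (log2 fold change 2.48 ± 0.49 SE, adjusted p = 0.00286). MT-TL1, a leucine tRNA that follows MT-RNR2, was at 896, 673 and 900.2 TPM in U87 control and 1539, 1417 and 1594 TPM in U87 aggregation libraries, the fifth in level after the cluster of 4. Of it and 8 other plus-strand tRNAs, MT-TF, MT-TK, MT-TG, MT-TR, MT-TH, MT-TS2, MT-TL2 and MT-TT, for phenylalanine, lysine, glycine, arginine, histidine, serine, leucine and threonine, all were called higher in U87, with log2 fold changes of 0.61 to 1.09. In U118, MT-TL1 (1.13), MT-TK (1.07) and MT-TT (0.92) of these 9 were called and the other 6 were not; the groups of MT-TL1 overlapped all the same. MT-TH was at 258, 288 and 232 TPM in U118 control and 887, 304 and 319.8 TPM in aggregation libraries. MT-TS2 was at 318, 327 and 246 TPM in control and 915, 284 and 297 TPM in aggregation libraries, and MT-TL2 was at 220.5, 216 and 140.1 TPM in control and 488, 154 and 164 TPM in aggregation libraries. Aggregation replicate 1 was the highest library for all 3, and without it the log2 fold changes of MT-TS2, MT-TL2 and MT-TG were -0.021, -0.24 and -0.13. MT-TP, for proline, on the minus strand at the end of the gene order, was not called in U87 (log2 fold change 0.47 ± 0.17 SE, adjusted p = 0.0591) or in U118 (log2 fold change 1.31 ± 0.59 SE, adjusted p = 0.0929).

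In U118 a larger share of the members before MT-CO1 in chromosomal order was called than of those from it on. Of the 15 members before MT-CO1, 13 were called higher in U118 and 11 in U87, and of the 22 from MT-CO1 on, 4 and 21. Of all genes tested, 12.2% were called higher in U118 and 9.43% in U87. The median log2 fold changes were 1.98 before MT-CO1 and 0.83 from it on in U118, and 0.93 and 0.69 in U87. Without U118 aggregation replicate 1 the U118 counts were 13 of 15 and 12 of 22, without control replicate 3 13 and 7, and without both 14 and 17. Of all genes tested, 1520 of 14658, 1535 of 14284 and 1611 of 12764 were called higher in these fits. With median-ratio scaling the U118 counts were 15 and 9, beside 3619 of all 15527 genes tested, and with no filter on low values 9 and 2, beside 2129 of 36126. This division was chosen after the values were seen and was not tested. By strand, all 14 plus-strand tRNAs were called in U87 and 7 in U118, and of the 8 minus-strand tRNAs 3 in U87 and 6 in U118; with median-ratio scaling the U118 counts were 13 and 7. The changes of the 13 mRNAs in the lines had a Pearson's r of 0.57 and a Spearman's rho of 0.45, and those of the 22 tRNAs an r of 0.10 and a rho of 0.095; the points share libraries within each line, and no p is given. GC content ran from 39.6% to 47.7% over the mRNAs and from 23.1% to 49.3% over the tRNAs.

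**Figure D4:**
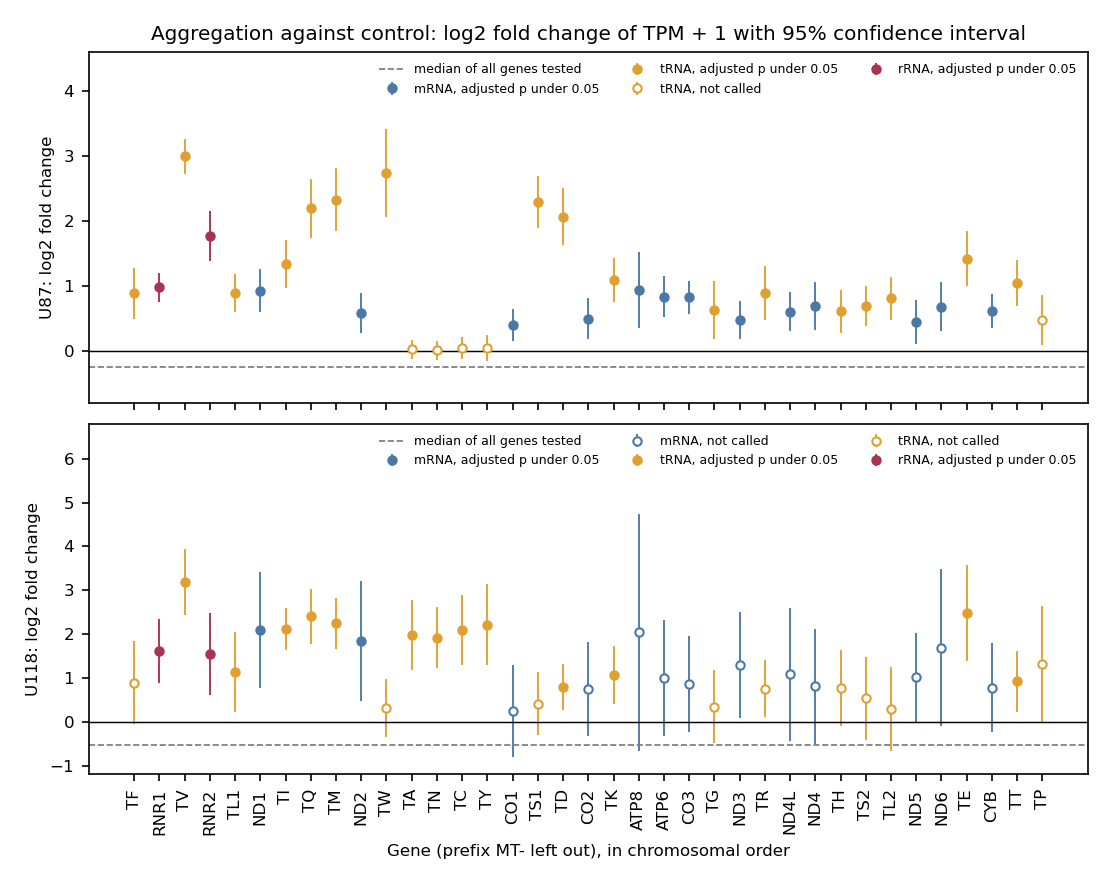
Log2 fold change of TPM + 1, aggregation against control (y axis), with 95% confidence intervals from limma, for the 37 genes in chromosomal order (x axis); filled points passed an adjusted p of 0.05 and the dashed line is the median of all genes tested. In U87 all points but TA, TN, TC, TY and TP are filled, and in U118 13 of 15 before CO1 and 4 of 22 from CO1 on are filled.

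Nuclear DNA holds copies of mitochondrial genes, and reads could have been shared with them. The tables list 407 such look-alikes, of which 286 were at 0 in every library and 11 had a mean of at least 1 TPM. The 5 with the highest means were MTATP6P1, MTND2P28, MTCO1P12, MTND1P23 and MTCO3P12, which lie within 1 stretch of chromosome 1, from 629062 to 634922 (GRCh38, plus strand), and are 98.1% to 98.7% identical to their mitochondrial counterparts over the aligned bases. MTATP6P1 was listed at 66.7% to 72.7% of the MT-ATP6 level in U87 control, 62.9% to 65.7% in U87 aggregation, 89.3% to 158% in U118 control and 107% to 141% in the libraries labelled U118 aggregation. MTND2P28 was at 16.0% to 24.0% of MT-ND2, and the other 3 were at most 4.62% of their counterparts, in every library. In U87 all 5 were called higher (log2 fold changes 0.38 to 1.17), and in U118 MTND2P28 (1.73) and MTND1P23 (1.87) were called, as were their counterparts. With the copies added, the log2 change of the summed MT-ATP6 and MTATP6P1 was 0.79 in U87 and 1.02 in U118, against 0.84 and 0.99 for MT-ATP6 alone. Adding all look-alikes to the mitochondrial share gave 15.9 ± 2.29% in U87 control and 24.0 ± 0.873% in U87 aggregation libraries (SD, n = 3).

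Of the nuclear genes of mitochondrial transcription and RNA processing that were tested in U87, limma called none higher, with 0 higher at an unadjusted p under 0.05, and the count lower for transcription was near the share of all genes. Of 10 genes of mitochondrial transcription, 0 were called higher and 3 lower, beside 9.43% and 29.7% of all genes tested, with a list median of 0.028; of 24 genes of mitochondrial RNA processing and stability 0 were called higher and 12 lower (median -0.62), and of 18 genes of mitochondrial DNA replication and maintenance 1 higher and 12 lower (median -0.69). All medians stand beside -0.24 for all genes tested, and with median-ratio scaling the counts were 0 higher and 2 lower, 0 and 9, and 1 and 8. Under that scaling 2174 of all 13845 genes tested were called higher and 2381 lower. POLRMT, the polymerase of the organelle, was at 55.6, 50.9 and 53.8 TPM in U87 control and 55.1, 51.1 and 55.6 TPM in U87 aggregation libraries (log2 fold change 0.014 ± 0.082 SE, adjusted p = 0.911). TFAM, which packs mitochondrial DNA and opens its promoters, was at 7.21, 13.9 and 7.93 TPM in control and 5.17, 4.67 and 4.51 TPM in aggregation libraries (log2 fold change -0.83 ± 0.24 SE, adjusted p = 0.0321). TFB2M, the initiation factor, was at 14.2, 28.1 and 19.8 TPM in control and 6.49, 6.30 and 7.77 TPM in aggregation libraries (log2 fold change -1.42 ± 0.24 SE, adjusted p = 0.00417). Both factors fell with groups that lay apart, while the elongation factor TEFM (log2 fold change 0.13 ± 0.21 SE, adjusted p = 0.664) and POLRMT did not pass the test. The mRNA-stabilising partners LRPPRC and SLIRP were at -0.51 and -0.22 and not called. Of the replication genes, POLG, the DNA polymerase, fell from 62.1 ± 0.240 to 24.8 ± 4.26 TPM (log2 fold change -1.30 ± 0.13 SE, adjusted p = 0.000541), TWNK, the helicase, fell by 0.68 and SSBP1, the single-strand binding protein, fell by 0.41. RRM2B, a ribonucleotide reductase subunit and p53 target, was the 1 replication gene that rose (1.32).

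In U118 the same lists had 0 higher and 2 lower of 10, 2 higher and 13 lower of 24, and 1 higher and 6 lower of 18, beside 12.2% higher and 39.1% lower of all genes tested, and their medians were -0.56, -0.83 and -0.55 beside -0.52 for all genes. With median-ratio scaling the counts were 1 and 0, 4 and 8, and 3 and 4, beside 3619 higher and 3900 lower of all 15527 genes tested. POLRMT (-0.31), TFAM (-0.81), TFB2M (-0.54), POLG (-0.59) and TWNK (-0.20) were not called. TEFM and LRPPRC fell, by 1.01 and 0.81, and SLIRP rose from 113 ± 4.98 to 207 ± 57.4 TPM (log2 fold change 0.83 ± 0.23 SE, adjusted p = 0.0163). SSBP1 rose by 0.88 in U118, while MGME1, an exonuclease of mitochondrial DNA, fell by 2.21. The coactivator PPARGC1A, a regulator of mitochondrial biogenesis, was at most 3.43 TPM in any library and was not called in either line; of the 8 regulators tested, 0 were called higher and 5 lower in U87, and 1 higher, PPARGC1B (1.70), and 2 lower in U118.

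Nuclear subunits of the same complexes were called in both directions in U87, where 9.43% of all genes were called higher and 29.7% lower, so the complex I counts were near those shares. In U87, 4 of 37 complex I subunits were called higher and 9 lower, 0 of 4 complex II subunits higher and 2 lower, 3 of 9 complex III subunits higher and 3 lower, 2 of 11 complex IV subunits higher and 3 lower, and 1 of 16 ATP synthase subunits higher and 7 lower. In U118 the counts were 8 and 5, 0 and 1, 1 and 0, 4 and 0, and 4 and 0, beside 12.2% and 39.1% of all genes. Over all 9 nuclear lists, 21 genes were called higher and 29 lower in U118, and without the 2 libraries that stood apart 27 and 65. In the latter fit 1611 of all 12764 genes tested were called higher and 7521 lower, so lower calls rose over all genes too. The complex IV median was 0.029 in U87 and 0.60 in U118, and those of complex I were 0.0042 and 0.12. NDUFA13 of complex I rose in U87 from 77.3 ± 8.75 to 139 ± 3.51 TPM, and SDHA of complex II, which has no mitochondrially encoded subunit, fell from 189 ± 11.5 to 114 ± 13.4 TPM (SD, n = 3). COX6A1 of complex IV rose in U118 from 676 ± 19.7 to 1471 ± 123 TPM, and ATP5MC1 of the ATP synthase from 121 ± 31.6 to 353 ± 72.5 TPM. With median-ratio scaling, which moved the all-gene medians to -0.016 in U87 and -0.045 in U118, the U87 counts became 8 higher and 3 lower for complex I, 4 and 1 for complex III, 4 and 0 for complex IV and 3 and 2 for the ATP synthase. Of all 13845 genes tested in U87, 2174 were then called higher and 2381 lower. The U118 counts of higher genes were 21 for complex I, 6 for complex III, 10 for complex IV and 9 for the ATP synthase, beside 3619 of all 15527 genes. The nuclear counts thus depend on the scaling. It raised the log2 fold changes of genes at large, and those of all 37 mitochondrial genes with them.

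**Figure D5:**
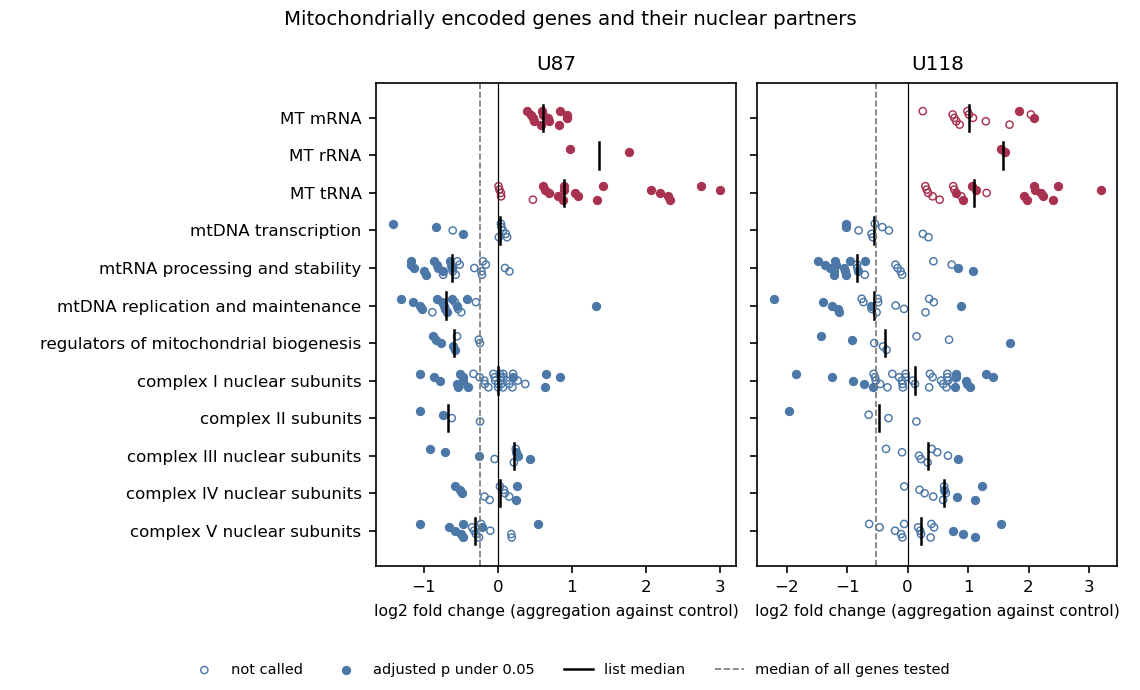
Log2 fold change, aggregation against control (x axis), of each gene (point) in the 3 classes of mitochondrially encoded RNA and in 9 lists of nuclear genes (rows); filled points passed an adjusted p of 0.05, short black bars are list medians and the dashed line is the median of all genes tested. In U87 the mitochondrially encoded classes lie to the right of 0 and the processing, replication and regulator lists mostly to the left, while in U118 complex I, III, IV and V lists extend to the right.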

How the data were processed

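Temozolomide-exposed aggregation cells and control cells of U87 and U118 were profiled by mRNA-seq from total RNA, with 3 libraries in each of 4 groups assigned from the sample titles. The submitters' processing notes name FastQC 0.11.2, Trimmomatic 0.36, HISAT2 2.0 and bedtools 2.26.0 and the build GRCh38; the tool and annotation behind TPM were not given in the sources used here. The values are TPM as deposited by the authors, in 1 table per line with 58174 genes, of which 57836 were found in GENCODE release 29. The 2 tables were made separately, so levels set across lines were not tested. TPM keeps no depth, and no interval for counting error was computed.

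Genes that reached 1 TPM in 3 or more of 6 libraries were fitted with limma 3.58.1 (R 4.3.3; lmFit, eBayes with trend) on log2(TPM + 1) within each line, and over 12 libraries for the difference between lines. P-values were adjusted by Benjamini-Hochberg over all genes tested. A further fit subtracted the mean of the 13 mitochondrial mRNAs from each library. Shares were compared by exact two-sided permutation. Sequences were read from GENCODE release 29 transcripts and aligned to look-alikes with Biopython 1.88. The fits were tested on simulated data.

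All 37 mitochondrial genes were named. Of the nuclear lists, 10 core genes were named together with examples from the 2 called genes of each list and line with the largest rise and fall and no overlap between groups, and of the look-alikes the 5 with the highest mean. The members and lists were chosen with earlier results of these data known. The cell line and sort marker list (11 genes) summed to 4801 to 7742 TPM over all libraries. Alternatives were pseudocounts of 0.1 and 0.001, no filter, median-ratio scaling, a filter at a mean of 10 TPM, scaling to genes outside the mitochondrial chromosome, a replicate block, eBayes without trend, a log2 fold change of at least 1 and leaving out each library. Leaving out U118 control replicate 3 and U118 aggregation replicate 1 together was added after seeing the data, in which they stood apart in the mitochondrial share itself. The main fits did not take the replicate numbers as pairs, although deviations of same-numbered libraries correlated weakly in U118.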

Additional observations from a re-analysis of the deposited data

Results flagged for a closer look

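The change from control to aggregation cells differed between U118 and U87, by limma's interaction term over 12 libraries, for 8 of the 37 mitochondrial genes, all of them tRNA genes. The U118 change was larger for 5 and smaller for 3 of the 37, beside 15.5% and 22.6% of all genes tested. In the fit of all 12 libraries such differences were thus no more frequent among the mitochondrial genes. The U118 change was the larger one for MT-TA (1.96 ± 0.39 SE, adjusted p = 0.0017), MT-TN (1.91 ± 0.32 SE, adjusted p = 0.000469), MT-TC (2.05 ± 0.39 SE, adjusted p = 0.00113) and MT-TY (2.17 ± 0.46 SE, adjusted p = 0.00274), the minus-strand cluster before MT-CO1, whose groups overlapped in U87 and lay apart in U118. It was also the larger one for MT-TI (0.78 ± 0.25 SE, adjusted p = 0.0279). It was the smaller one for MT-TW (-2.42 ± 0.42 SE, adjusted p = 0.000651), MT-TS1 (-1.88 ± 0.38 SE, adjusted p = 0.00172) and MT-TD (-1.27 ± 0.29 SE, adjusted p = 0.0045). All 8 rest on the line label of the U118 aggregation libraries, which resembled U87 libraries in part, and on tables that were normalized separately. Without U118 aggregation replicate 1 the number of such genes was 17, and without it and U118 control replicate 3 it was 29. Of all genes tested, 2573 of 16071 had a larger and 5845 a smaller U118 change in the first case. In the second case 2592 of 14971 had a larger and 5054 a smaller one. The cause of these differences was not tested.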

How the results depend on the processing

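Of 295 recomputed counts and shares, 247 kept their direction and stayed within 1.5 times the reported value or on the same side of the threshold. Of 1207 recomputed fold changes of single genes, 1082 kept direction and call, 62 lost the call, 51 gained it and 12 changed sign. With no filter on low values, limma called 8 mRNAs in U87, and in U118 0 mRNAs and 1 rRNA. With a pseudocount of 0.001, 1 mRNA was called in U118. At a log2 fold change of at least 1, U87 had 0 mRNAs, 1 rRNA and 10 tRNAs. Median-ratio scaling gave 20 tRNAs in U118. For the nuclear lists (11 higher and 56 lower in U87, 21 and 29 in U118) it gave 20 higher and 29 lower in U87 and 56 and 15 in U118, and scaling to genes outside the mitochondrial chromosome gave 18 higher in U87 and 36 in U118. Of all genes tested, median-ratio scaling gave 2174 higher and 2381 lower of 13845 in U87 and 3619 and 3900 of 15527 in U118. The other scaling gave 1741 higher in U87 and 2503 in U118. Deviations of same-numbered libraries correlated at 0.011, -0.067 and -0.040 in U87 and 0.14, 0.051 and 0.095 in U118. The highest correlations with other numbers were 0.045, 0.077 and 0.041 in U87 and -0.10, -0.021 and 0.040 in U118. Each same-numbered value was thus the higher one in U118 and none was in U87, and the main fits took no pairs. With the replicate block, 8 mRNAs were called in U118, 13 of the 22 members from MT-CO1 on (against 4) and 7 nuclear genes higher in U87. Of all genes tested, 2005 of 15527 were then called higher in U118 and 1019 of 13845 in U87.

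Leaving out 1 library gave 7 to 13 mRNAs, 2 to 2 rRNAs and 15 to 18 tRNAs called in U87, and 0 to 9, 1 to 2 and 10 to 14 in U118. The counts relative to the mRNA mean were 0 to 5 in U87 and 0 to 1 in U118. The nuclear lists had 5 to 14 genes higher and 45 to 63 lower in U87, and 13 to 23 and 15 to 49 in U118. The number of genes that differed between lines was 7 to 17. The summed log2 odds of the mitochondrial share over both lines was 1.95 and ran from 1.64 to 2.45, with exact permutation p-values of 0.08, 0.06, 0.075 and 0.075 without U118 control replicates 1 and 2 and aggregation replicates 2 and 3. Where 1 group is left with 2 libraries, the spread is pooled. Without both U118 control replicate 3 and aggregation replicate 1, U118 had 13 mRNAs and 16 tRNAs called higher, 1 tRNA lower, 9 mRNAs called relative to the mRNA mean, 27 nuclear genes higher and 65 lower, a summed log2 odds of 2.90, and 29 genes differed between the lines. Of all 12764 genes tested in U118, 1611 were then called higher and 7521 lower.

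Signs changed in U87 without control replicate 2 for MT-TA, MT-TN, MT-TC and MT-TY, whose values with 1 library left out ran from -0.029 to 0.065, -0.036 to 0.055, -0.011 to 0.086 and -0.032 to 0.093. In U118 they changed for MT-CO1 without control replicate 1 (-0.022), and without aggregation replicate 1 for MT-TG (-0.13), MT-TS2 (-0.021) and MT-TL2 (-0.24). Without the libraries that stood apart the values were -0.11, -0.15 and -0.46 for the latter 3, -0.0035 for MT-TS1 and 0.97 for MT-CO1. The highest values with 1 library left out were 0.59, 0.82 and 0.59 for MT-TG, MT-TS2 and MT-TL2 and 0.65 for MT-TS1. The causes were not tested. TPM keeps no depth, so the part of depth in these limits is unknown.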
